A study of Caenorhabditis elegans with 2 samples.

Results

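The insulin receptor to FOXO pathway of Caenorhabditis elegans is described here through 10 of its genes: daf-2, ist-1, age-1, aap-1, pdk-1, akt-1, akt-2, sgk-1, daf-18 and daf-16. They are 10 of the 19973 protein-coding genes outside the mitochondrial genome. A region of the deposited peak lists was assigned to a gene when its summit lay within the gene or up to 5000 bp upstream of it, a stretch called the window of the gene. The genes are those of the intracellular pathway, and they were chosen with earlier results of these data known, akt-2 as the bound case. One gene, akt-2, had a peak in the optimal list. Of the others, 7 had only candidate regions of lower signal, which may be background, and 2 had no region at all.

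The pathway carries an insulin-like signal from the cell surface to the nucleus. The receptor DAF-2 acts through a phosphatidylinositol 3-kinase, which makes a membrane lipid that brings PDK-1, AKT-1 and AKT-2 together, and the AKT kinases phosphorylate the FOXO transcription factor DAF-16 and keep it out of the nucleus. The phosphatase DAF-18 removes the lipid and opposes the signal. The pathway is known for its control of dauer formation, growth, stress resistance and lifespan.

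Chromatin immunoprecipitation followed by sequencing mapped EOR-1, a zinc finger transcription factor that resembles mammalian PLZF and is known to act in Ras and Wnt signalling. The animals were whole L3 larvae of strain OP81, of both sexes pooled and of unknown age, with the allele unc-119(ed3) on chromosome III and the transgene wgIs81, which supplies EOR-1 fused to eGFP. All samples share both alleles, and the labels name no mutation of the endogenous eor-1 gene. There were 2 biological replicates in 1 group and no second condition, so the 10 genes were set beside all protein-coding genes and no condition was compared.

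Whole larvae mix all tissues, so a low signal from binding in few cells and one from weak binding in many cells cannot be told apart. A low signal can also be background without binding. The candidate lists hold peaks and background alike and were the input to a test of irreproducible discovery rate. The optimal list is what that test kept. There were 29970 nuclear candidates in the pooled list, with a signal value of 12.9 to 384, 29973 in replicate 1 (8.06 to 163) and 29971 in replicate 2 (6.98 to 220). The optimal list held 256 nuclear peaks, with a signal of 52.7 to 384 and a median of 66.2, and these were the 256 nuclear pooled regions with the highest signal. The scale of the signal value is not stated and read depth is unknown, so no error can be put on a single signal. The replicates have scales of their own and are given side by side, and every rank is among the nuclear regions of its own list. Positions are in build ce11, counted from 1.

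The optimal peak of akt-2 lay at X:14146965-14147260, in the stretch between akt-2 and its upstream neighbour ceh-89, a homeobox gene on the same strand. Its summit at position 14147113 was 587 bp upstream of position 14147700, where both annotated akt-2 transcripts start, and 2224 bp past the end of ceh-89. The next protein-coding gene on the other side, ceh-90, was 8002 bp from the summit. The peak therefore fell in the promoter of akt-2. A promoter here means the 1000 bp before a transcript start and the 200 bp after it. Its sequence is shown because it is the only optimal peak in the windows of the 10 genes. It is from the RefSeq genome WBcel235, plus strand, which is also the strand of akt-2, and the summit is base 149 of the 296. Capitals mark matches to GAGAG, read here on the other strand as CTCTC.
akt-2 optimal peak, X:14146965-14147260: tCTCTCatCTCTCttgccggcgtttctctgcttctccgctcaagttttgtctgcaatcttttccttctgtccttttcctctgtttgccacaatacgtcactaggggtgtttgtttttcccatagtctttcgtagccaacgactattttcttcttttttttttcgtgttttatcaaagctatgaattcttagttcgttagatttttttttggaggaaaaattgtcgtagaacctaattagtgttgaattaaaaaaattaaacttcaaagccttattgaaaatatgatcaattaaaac

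The peak had a signal of 68.8 in the pooled list, 28.3 in replicate 1 and 40.7 in replicate 2. The summits in replicate 1 and replicate 2 lay 6 and 4 bp from the pooled one. The deposited −log10 q value of the region was 2.50 in the pooled list, 1.08 in replicate 1 and 2.64 in replicate 2. The peak was ranked 117 of 256 among nuclear optimal peaks and 36 of the 67 on chromosome X, near the middle of both. In replicate 2 its rank was 92, inside the first 256 regions, of which the lowest had a signal of 29.2. In replicate 1 its rank was 404, outside the first 256, of which the lowest had a signal of 31.3. The 2 replicates thus placed the same summit on different sides of an equally long list.

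The peaks closest to that of akt-2 in pooled signal, 68.79, were, just above it, those with the closest starts at lgc-21 (69.6), T24D8.6 (69.2) and Y22D7AL.10 (68.9). Just below it came ZK484.6 (68.75), nipi-3 (68.6) and Y7A9D.1 (68.4). The akt-2 peak, at 28.3 in replicate 1 and 40.7 in replicate 2, was most like that near lgc-21 in its replicate values, 28.5 and 39.5. The peak near T24D8.6 also had its higher value in replicate 2, 42.0 against 31.5 in replicate 1. The peak of Y7A9D.1 had the opposite order, 46.65 in replicate 1 and 20.9 in replicate 2. Peaks of nearly equal pooled signal therefore differed widely between the replicates, and the akt-2 peak had the lowest replicate 1 signal of these 7.

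Counted over the pathway, 1 of the 10 genes had an optimal peak (10%, exact Clopper-Pearson 95% interval 0.253 to 44.5%), against 2.14% of all protein-coding genes. The interval covers counting error only. Since akt-2 was chosen as the bound case, a count of at least 1 was set beforehand, and the interval cannot compare the pathway with the background. Among the first 256 regions of replicate 2, 1 of the 10 genes was called, again akt-2, against 2.11% of all genes. Among the first 256 of replicate 1, 0 of the 10 were called (95% interval 0 to 30.9%), against 2.02% of all genes. The single akt-2 peak, known when the genes were chosen, makes up the whole count. The count therefore cannot show whether the pathway differs from other genes.

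A pooled candidate lay in the windows of 8 of the 10 genes (80.0%, 95% interval 44.4 to 97.5%), against 57.2% of all protein-coding genes. The corresponding counts were 7 of 10 in replicate 1 against 63.8% of all genes, and 8 of 10 in replicate 2 against 63.7%. Both genes of the phosphatidylinositol 3-kinase, age-1 and aap-1, lacked a candidate in all 3 lists, and daf-18 lacked one in replicate 1. The interval of the pooled share holds the share of all genes, and the windows of several of the genes are long. Among genes with windows of 10000 bp or longer, 75.1% had a pooled candidate. Among genes on X, a background added after the data were seen, 68.8% had one. With 10 genes these counts do not show whether the pathway differs from other genes. There were 55 pooled candidates in the 8 windows, with a median signal of 18.95 against 19.4 over all nuclear pooled candidates. After the akt-2 peak, the next highest signal was 40.4, at daf-16, below the lowest optimal signal of 52.7. The deposited −log10 q value was 0.173 to 0.551 at the other 54 pooled candidates, against 2.50 at the akt-2 peak. A pooled candidate alone is therefore no evidence of binding.

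**Figure D1:**
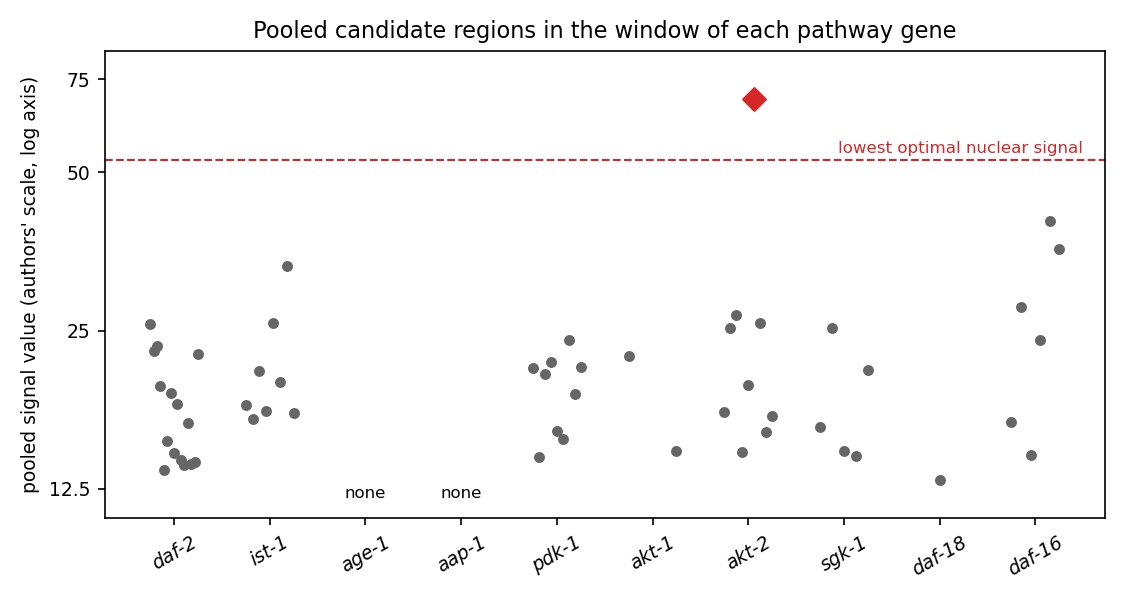
Signal value (vertical axis, authors' scale, log axis) of each pooled candidate region whose summit lay within the gene or up to 5000 bp upstream, for the 10 pathway genes in pathway order; points are single regions and the red diamond is the optimal peak of akt-2. Only the akt-2 peak, at 68.8, lies above the dashed line at 52.7, the lowest optimal nuclear signal, and age-1 and aap-1 have no point.

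At the receptor, daf-2 lies at III:2994514-3040846 on the minus strand, and its 46.3 kb made it the longest of the 10 genes. Its window held 15 pooled candidates, 18 in replicate 1 and 13 in replicate 2, which is 2.92 pooled candidates per 10 kb against 2.92 over the windows of all protein-coding genes. Their pooled signals were 13.6 to 25.7, with a median of 16.7, and 29.5% of all genes had a candidate at least as high as the highest of daf-2. On average the long window therefore held candidates at the genome's own density, but they were unevenly spread. No pooled summit lay between positions 2999708 and 3029963, a stretch with internal daf-2 starts, although both replicate lists had candidates there. The strongest, at III:2995298-2995593, lay in the 3′ UTR at the far end of the gene, 5389 bp from the start of Y55D5A.4 and 5866 bp from the closest daf-2 start, with a signal of 25.7 in the pooled list (rank 6545), 16.55 in replicate 1 and 8.73 in replicate 2. The start of the longest transcript had 2 weak promoter candidates, at 121 bp upstream with a signal of 14.0 and at 467 bp upstream with a signal of 14.0. The first overlapped a candidate in replicate 2 only, and the second overlapped none in either replicate. The highest daf-2 region of replicate 1, at III:3029307-3029596 with a signal of 19.8, lay 652 bp upstream of an internal start and overlapped no pooled candidate.

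The gene ist-1 encodes an adaptor related to the insulin receptor substrates of mammals, and lies at X:7126648-7139666 on the plus strand. It had 8 pooled candidates, 9 in replicate 1 and 12 in replicate 2, with pooled signals of 17.0 to 33.1. The strongest was inside an intron at X:7129188-7129483, with its summit 2685 bp past the closest ist-1 start, and had a signal of 33.1 in the pooled list (rank 2145), 16.8 in replicate 1 (rank 5032) and 8.26 in replicate 2 (rank 23873). Candidates at least that high were found at 13.2% of all genes. The highest ist-1 signal of replicate 1, 21.8 (rank 1494), belonged to another intron region, whose pooled counterpart had a signal of 17.4 and which had no counterpart in replicate 2. In replicate 2 the highest ist-1 signal was 12.51 (rank 9975), in a region 2846 bp upstream of the gene. The strongest pooled region was thus present in both replicates, but each replicate had its own highest signal elsewhere. The 101 bases around the strongest pooled summit are shown from the same genome on the plus strand. They hold none of the words searched, so no letter is in capitals. The 101 bases around the akt-2 summit hold none of these words either. G and C made up 20.8% of the ist-1 bases. Over the same length the share was 33.7% at the akt-2 summit and 32.7% at the strongest akt-1 candidate.
ist-1 intron candidate, X:7129286-7129386: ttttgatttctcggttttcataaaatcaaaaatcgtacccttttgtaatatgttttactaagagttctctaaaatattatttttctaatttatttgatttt

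The catalytic subunit of the phosphatidylinositol 3-kinase is encoded by age-1, at II:11519328-11527054 on the minus strand, and its adaptor subunit by aap-1, at I:5107843-5110183 on the plus strand. Neither window held a candidate in the pooled list or in either replicate. The empty window of age-1 sat in a stretch of 122 kb between neighbouring pooled candidate summits, 95.9 kb to one side of the window and 13.45 kb to the other. Of the 29964 gaps between neighbouring pooled candidates, 12 were as long, which is 0.0401%, and the median gap was 1.28 kb. In the replicates the gap around age-1 was shorter, 20.6 kb in replicate 1 and 46.3 kb in replicate 2. The pooled candidate 13.45 kb from the window was itself the closest optimal peak, 18.45 kb from the start of age-1. It had a signal of 189, and its closest start was at dnj-13, a DnaJ chaperone gene. Around aap-1 the gap was 49.3 kb in the pooled list, 49.3 kb in replicate 1 and 44.0 kb in replicate 2, and 0.537% of pooled gaps were as long. Both shares are of gaps and not of genes, and a gene is more likely to fall in a long gap than in a short one. They therefore do not say how rare such an empty window is for a gene. These gaps were examined after the empty windows had been seen. The absence of a candidate says only that no region there reached the list.

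The kinase gene pdk-1, whose product phosphorylates the AKT kinases, lies at X:1321344-1327986 on the plus strand. It had 9 pooled candidates, 9 in replicate 1 and 5 in replicate 2, or 7.73 pooled candidates per 10 kb, a density reached by 6.32% of all genes. All 9 were weak, with pooled signals of 14.4 to 24.0, and 34.3% of all genes had a candidate as high. The strongest, in an intron at X:1322619-1322914, had a signal of 24.0 in the pooled list (rank 8421) and 17.9 in replicate 1 (rank 3900) and overlapped no candidate in replicate 2. So the window was dense in candidates but held none of high signal, although an optimal peak of signal 169, with its closest start at the insulin-like peptide gene ins-39, lay 23.7 kb from the start of pdk-1.

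The gene akt-1, at V:10248905-10252845 on the plus strand, encodes the other AKT kinase. Its 2 pooled candidates had signals of 22.38 and 14.75 and lay 4666 and 4339 bp upstream of the gene. Both were closer to the start of C12D8.9, at 1034 and 1361 bp, and neither overlapped a candidate in a replicate list. Replicate 1 had 4 candidates of its own in the window, with signals of 8.11 to 10.3, and replicate 2 had 1, with a signal of 10.01. One of these, from replicate 1, lay in the promoter, 792 bp upstream of the start, with a signal of 10.3 (rank 20152). The AKT pair thus differed in every list: 68.8 for the highest akt-2 region and 22.4 for that of akt-1 in the pooled list, 28.3 and 10.3 in replicate 1, and 40.7 and 10.01 in replicate 2. No test of this pair was made, since a single signal carries no error here.

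Beside its optimal peak, akt-2, at X:14147700-14152070 on the plus strand, had 8 more pooled candidates, with signals of 14.7 to 26.75. The optimal peak was 1 of 9 pooled candidates, 6 of which overlapped a candidate in both replicates, and the window held 9.60 pooled candidates per 10 kb, a density reached by 2.03% of all genes. A second promoter candidate at X:14147164-14147459 overlapped the first, with its summit 388 bp upstream of the start and a signal of 25.8 in the pooled list. In replicate 2 it was a region of its own, with a signal of 17.2 and a summit 2 bp away, whereas in replicate 1 it overlapped only the region of the main peak, 205 bp from it. Of the others, 3 lay within ceh-89, with signals of 17.5, 25.2 and 26.75, and 2 in the 3′ UTR of akt-2, with signals of 16.1 and 17.2. The remaining 2 were intergenic, with signals of 14.7 and 19.7. A signal as high as the 68.8 of akt-2 was found at 193 genes, or 0.966% of all.

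The gene sgk-1, at X:16254842-16262122 on the minus strand, encodes a kinase related to the AKT kinases and to the serum and glucocorticoid inducible kinase of mammals. It had 5 pooled candidates, 6 in replicate 1 and 4 in replicate 2, with pooled signals of 14.5 to 25.3. The strongest, at X:16259995-16260290, had its summit 15 bp upstream of an internal sgk-1 start and a signal of 25.3 in the pooled list (rank 6915) and 18.9 in replicate 1 (rank 3085), with no counterpart in replicate 2. In replicate 2 the highest sgk-1 signal was 14.5, in an intron at X:16261452-16261751, where the pooled list had no candidate. Replicate 1 had an overlapping region there, X:16261643-16261932, with a signal of 16.1 (rank 6006). A candidate of signal 21.0 at 4606 bp upstream was closer to mua-6, 1042 bp from the start of that gene. The window of sgk-1 thus resembled those of daf-2 and pdk-1 in its highest pooled signal, 25.3 against 25.7 and 24.0.

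**Figure D2:**
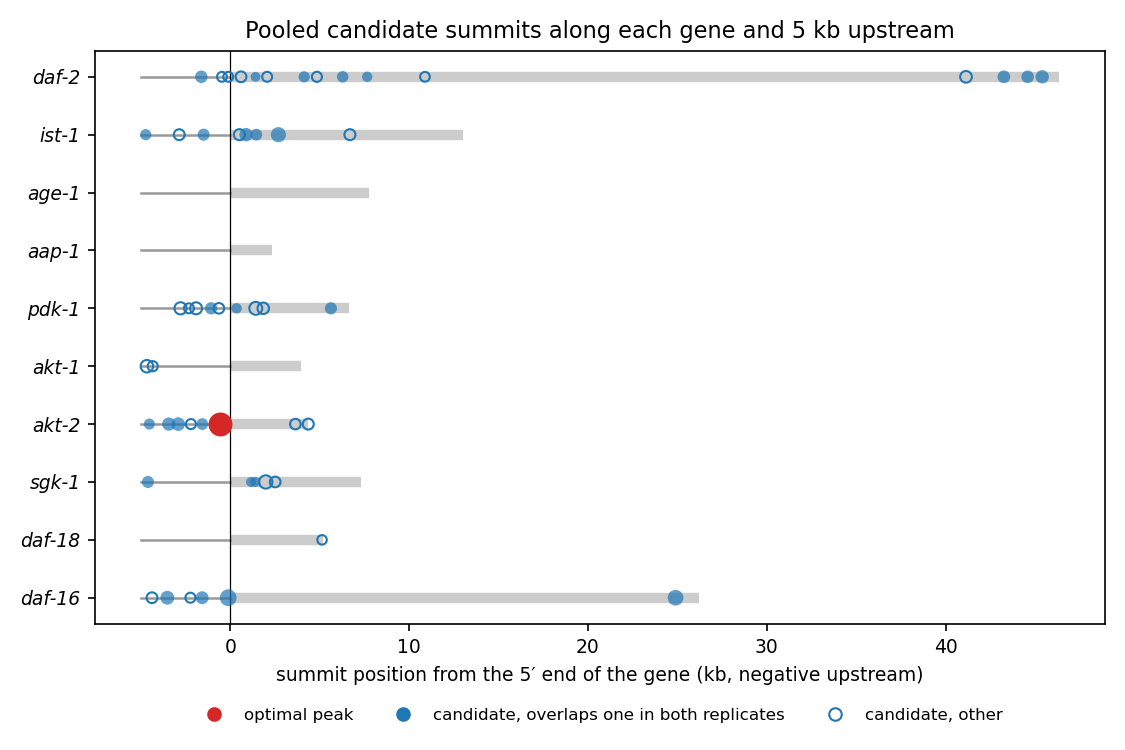
Position of pooled candidate summits (horizontal axis, kb from the 5′ end of the gene, negative upstream) for the 10 pathway genes, with grey bars for the genes and thin lines for the 5000 bp upstream; the area of a circle grows with pooled signal, filled circles overlap a candidate in both replicates, and open ones do not. The akt-2 peak, in red 587 bp upstream of the start, is the largest circle, the 2 akt-1 candidates lie at the far end of its upstream stretch, and the single daf-18 candidate lies at the 3′ end of the gene.

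The phosphatase gene daf-18 lies at IV:420011-425177 on the minus strand. Its single pooled candidate had a signal of 13.0, with rank 29772 among the lowest of the list. It lay at the 3′ end of the gene, with its summit 90 bp upstream of the start of eri-1, and so counted as an eri-1 promoter. Replicate 2 had an overlapping region with a signal of 14.9 (rank 5730), replicate 1 had none, and 57.1% of all genes had a pooled candidate at least as high. Replicate 2 also had a region 1975 bp upstream of daf-18, in the 3′ UTR of garr-1, with a signal of 10.3 (rank 15943). No list placed a region in the promoter of daf-18.

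The FOXO gene daf-16 lies at I:10750498-10776703 on the plus strand and has 11 annotated transcripts from 7 starts. It had 6 pooled candidates, 11 in replicate 1 and 11 in replicate 2, with pooled signals of 14.5 to 40.4. The strongest, at I:10750231-10750526, had its summit 119 bp upstream of the first start. Its signal was 40.4 in the pooled list (rank 790), 13.0 in replicate 1 (rank 11788) and 26.6 in replicate 2 (rank 387), with summits within 1 bp of the pooled one in both replicates. The position was shared, but the rank was far higher in replicate 2. A second region, in an intron at I:10775247-10775542, lay 2396 bp downstream of the innermost start and 24897 bp from the first, with a signal of 35.65 in the pooled list (rank 1459), 16.22 in replicate 1 (rank 5823) and 22.04 in replicate 2 (rank 979). The highest daf-16 region of replicate 1 was a different one, 3524 bp upstream, with a signal of 19.2 in replicate 1 (rank 2866), 8.745 in replicate 2 and 27.7 in the pooled list. It was closer to the start of B0205.4, at 2559 bp, and its replicate 2 summit lay 205 bp away. A pooled candidate as high as that of daf-16 was found at 5.82% of all genes, but the daf-16 region stayed outside the optimal list. This share, like those given for the other genes, is over windows of any length. A long window, such as the 31.2 kb of daf-16, has more room for a high candidate.

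**Figure D3:**
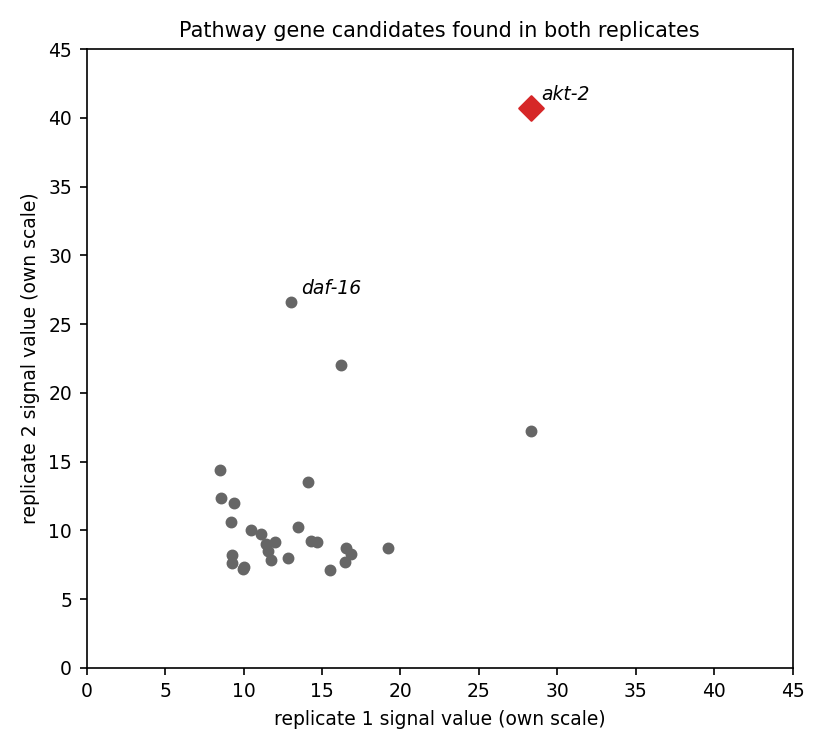
Signal in replicate 1 (horizontal axis, own scale) and replicate 2 (vertical axis, own scale) of the pooled candidates at the pathway genes that overlapped a candidate in both replicates; each point is a region, 2 sgk-1 candidates that share their replicate regions are 1 point, and the red diamond is the optimal peak of akt-2. The akt-2 peak lies at 28.3 and 40.7, the labelled daf-16 promoter region at 13.0 and 26.6, and the point below the akt-2 peak at the same replicate 1 value is the second akt-2 promoter candidate, which shares the replicate 1 region of the main peak.

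Of the 55 pooled candidates at the pathway genes, 29 overlapped a candidate in both replicates, which is 52.7% (95% interval 38.8 to 66.35%), against 49.4% over all 29970 nuclear pooled candidates. A further 14 overlapped one in replicate 1 only, 7 in replicate 2 only, and 5 in neither. The 5 in neither, 9.09% against 5.31% of all, were 3 at daf-2 and the 2 at akt-1. With summits required to lie within 100 bp, 30.9% (19.1 to 44.8%) were found in both replicates, against 32.6% of all. Under either rule the interval holds the share of all pooled candidates. By overlap, 6 of 9 candidates at akt-2 had a partner in both replicates, 5 of 8 at ist-1 and 8 of 15 at daf-2. The counts were 4 of 6 at daf-16, 3 of 5 at sgk-1 and 3 of 9 at pdk-1. A replicate region can serve more than 1 candidate. At sgk-1, 2 candidates shared their partners in both replicates. At akt-2, the second promoter candidate shared the replicate 1 region of the main peak.

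The 4 genes on chromosome X, ist-1, pdk-1, akt-2 and sgk-1, held 31 of the 55 pooled candidates in 51.3 kb of window. Their density was 6.04 per 10 kb (exact Poisson 95% interval 4.11 to 8.58, counting error only), against 3.51 per 10 kb (3.41 to 3.60) over the windows of all protein-coding genes on X. Each of the 4 was above that value, with 9.60 for akt-2, 7.73 for pdk-1, 4.44 for ist-1 and 4.07 for sgk-1. The replicates gave 5.85 and 5.65 per 10 kb at these genes, against 3.50 and 3.61 over all genes on X. The 6 autosomal genes held 24 candidates in 121.7 kb, or 1.97 per 10 kb (1.26 to 2.93), against 2.80 over all autosomal genes. There the replicates gave 2.711 and 2.218 per 10 kb, against 2.825 and 2.792 over all autosomal genes, so replicate 1 was close to its background. The split by chromosome was chosen after the values were seen, and neighbouring candidates are not independent. Over all 10 genes together the density was 3.18 per 10 kb (2.40 to 4.14), against 2.92 over all genes, which the interval holds.

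**Figure D4:**
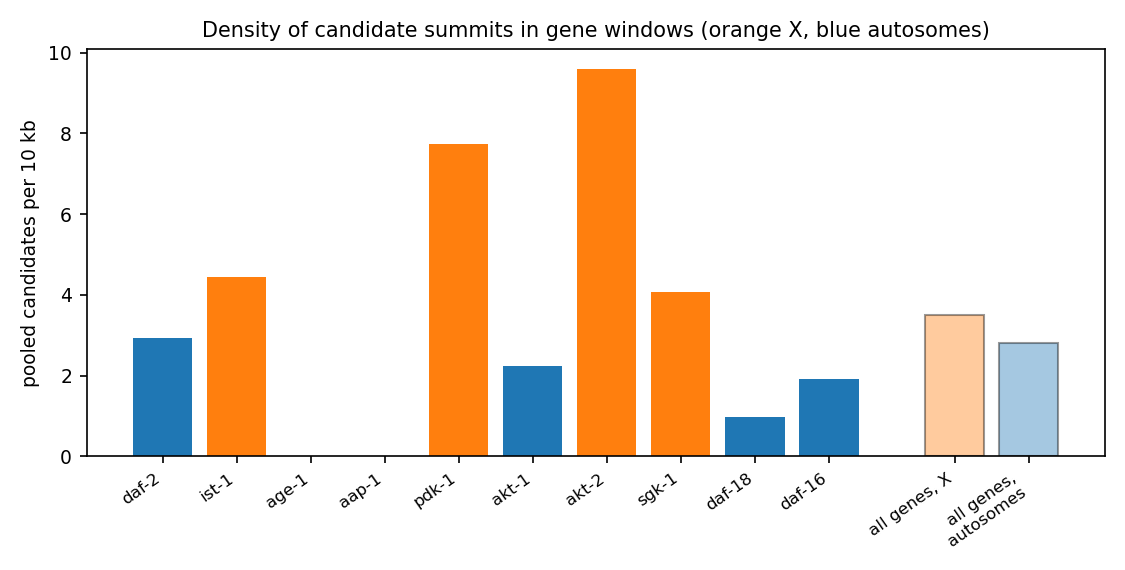
Pooled candidates per 10 kb of window (vertical axis) for each pathway gene, with all protein-coding genes on X and on the autosomes at the right; orange is X and blue the autosomes. The 4 pathway genes on X stand at 4.07 to 9.60, above the 3.51 of all genes on X, and of the autosomal genes only daf-2, at 2.92, is above the 2.80 of all autosomal genes.

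By place, 23 of the 55 candidates lay in introns, which is 41.8% (95% interval 28.7 to 55.9%) against 35.6% of all nuclear pooled candidates. Promoters held 10, or 18.2% (9.08 to 30.9%) against 26.9%, and 17 were intergenic, or 30.9% (19.1 to 44.8%) against 32.0%. The 3′ UTR class held 5, or 9.09% (3.02 to 19.95%) against 3.18%, and coding exons held 0 (0 to 6.49%) against 1.93%. Each of these 5 intervals holds the share of all candidates, that of the 3′ UTR class only just. The intervals are wide and neighbouring candidates are not independent, so the counts do not show whether the pathway regions differ by place. Some of the places belong to other genes, such as the 3′ UTR of ceh-89 and the promoter of eri-1.

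Words known for the factors involved were searched on both strands within 50 bp of the summits. The EOR-1 words GAGACGCAG and AGACGCAGA, which overlap each other by 8 letters and were recalled for this factor, were at 0 of the 55 pathway summits, against 11.7% of the 256 optimal peaks and 0.380% of all pooled candidates. The shorter word GAGAG was at 7 of 55, or 12.7%, against 32.8% of optimal peaks and 7.03% of pooled candidates. These 7 were 3 at daf-2, 2 at daf-16, 1 at ist-1 and 1 at sgk-1, and they include the daf-16 promoter region of signal 40.4. The DAF-16 binding element GTAAACA was at 0 of 55, against 2.34% of optimal peaks and 1.31% of pooled candidates. The DAF-16 associated element CTTATCA was at 1, in the daf-2 promoter region 467 bp upstream, against 1.562% and 1.598%. A match is a description of the letters and no proof of a site.

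In the akt-2 peak neither EOR-1 word occurred. Its 2 GAGAG matches lay 145 and 138 bp from the summit, at the edge of the region furthest from the gene. Among optimal peaks of the same 296 bp, 49.4% held at least 1 GAGAG and 30.04% held 2 or more, against 20.7% and 3.99% of pooled candidates of that length. An EOR-1 word did occur outside the peak, where the second promoter candidate ends. Its first base lay 199 bp past the end of the peak, and its middle lay 350 bp from the summit and 237 bp upstream of the akt-2 start. This word is printed because it is the EOR-1 word nearest to the akt-2 start. Below it stands the pdk-1 intron word, which lay 52 bp from the summit of a candidate of signal 18.95. Both are from the RefSeq genome WBcel235, plus strand, and capitals mark the EOR-1 word, on the other strand in pdk-1, and in akt-2 also GAGAG on the other strand.
akt-2 upstream word, X:14147433-14147493: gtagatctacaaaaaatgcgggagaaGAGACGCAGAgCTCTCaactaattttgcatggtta
pdk-1 intron word, X:1323206-1323266: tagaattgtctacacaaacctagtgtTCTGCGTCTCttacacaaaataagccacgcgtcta

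Across the windows of the 10 genes the EOR-1 words occurred 13 times, 0.751 per 10 kb against 0.537 over all protein-coding genes. There were 4 at daf-2, 3 at pdk-1, 3 at akt-2 and 1 each at age-1, akt-1 and daf-18, and none at ist-1, aap-1, sgk-1 or daf-16. The word at age-1 lay in a window with no candidate, and daf-16 and ist-1, with the next highest signals after akt-2, had no word. Of the 3 genes with the highest pooled signal, akt-2 alone had a word. GTAAACA occurred 25 times, 1.45 per 10 kb against 1.17, CTTATCA 34 times, 1.97 against 1.90, and GAGAG 308 times, 17.8 against 14.8. The G and C content within 50 bp of the summits had a median of 26.7% at the 55 pathway candidates, against 40.6% at optimal peaks and 25.7% at all pooled candidates.

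Genes that act on the pathway or below it were counted from 3 lists. Of 20 regulators of DAF-16 and the receptor branch, 1 had an optimal peak (5%, against 2.14% of all genes) and 15 a pooled candidate (75%, against 57.2%). The 1 was ftt-2, whose product binds phosphorylated DAF-16 and holds it in the cytoplasm. It had 2 adjoining optimal peaks, at X:11605694-11605944 with a signal of 232 in the pooled list, 116 in replicate 1 and 123 in replicate 2, and at X:11605944-11606177 with 125, 50.6 and 72.6. Of 12 genes of the TOR and AMPK branch, 0 had an optimal peak and 8 a pooled candidate (66.7%). Of 19 genes known to respond to DAF-16, 2 had an optimal peak (10.5%) and 10 a pooled candidate (52.6%). These were hsp-16.2, a small heat shock gene, with a signal of 103 in the pooled list, 57.2 in replicate 1 and 48.95 in replicate 2, and mdl-1, a gene of the MAD family, with 101, 53.6 and 46.5. The hsp-16.2 peak, at V:1804999-1805294, was closer to the start of its divergent neighbour hsp-16.41, at 31 bp, than to its own, at 190 bp. The akt-2 peak, at 68.8, was thus weaker than each of these 4 peaks.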

How the data were processed

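Peaks of EOR-1 were measured by ChIP-seq in L3 larvae. The deposited lists are narrowPeak regions in build ce11. The signal value is that of the authors' peak caller, with its scale not stated. The −log10 q value is as deposited, by the column order of the format. Per the deposited README, each replicate and the pooled alignments gave candidates called against a control; the optimal list came from thresholding by irreproducible discovery rate. Names of the aligner and peak caller were not given in the sources used here. Lists in ce10 were not used, since the annotation is ce11.

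Summits (start plus offset) were assigned to protein-coding genes of Ensembl release 115, the whole gene plus 5000 bp upstream; 1 summit can count for several genes. Candidates of 2 lists matched by an overlap of 1 bp or more, taking the closest summit. Mitochondrial regions were left out of ranks. With 1 group no test between conditions exists; intervals are exact 95% ones and cover counting error only. The assignment was tested on simulated data. Tables were made with pandas 2.3.3 and numpy 2.4.6 under Python 3.11.15, intervals with SciPy 1.17.1 and plots with matplotlib 3.10.9.

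The genes, lists and words were chosen with earlier results of these data known. The genes named are the 10, the listed genes with an optimal peak, those at the 3 optimal peaks ranked on each side of that of akt-2, the neighbours of that peak, and any gene closer than the pathway gene to its strongest candidate. Other genes named, such as dnj-13 and ins-39, were chosen after their values were seen. One listed gene, dod-8, did not match the annotation. Alternatives were other windows, closest gene only, shorter lists, other overlap rules, each replicate alone, wider word windows and other backgrounds.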

Additional observations from a re-analysis of the deposited data

How the results depend on the processing

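Of 83 alternative values, 58 stayed within the limit set and 25 moved. These values have no sign, so none could reverse. Some could not move, since a shorter window at age-1 or aap-1 must be empty where the longer window is. The tally is therefore no measure of how robust the results are. The limit was 1.5 times for counts, the SD of the replicates for densities and signals, and the exact 95% interval for shares. The count of pathway genes with an optimal peak was 0 with gene bodies alone or the first 100 optimal peaks, and 0 to 1 over the 2 replicates taken alone, with 0 from the list of replicate 1. With the first 3000 pooled candidates, 3 genes and 4 regions were left. Regions numbered 29 in gene bodies and 35 with 1000 bp upstream, and density was 2.36, 2.63 and, with 2000 bp upstream, 2.87 per 10 kb. The share found in both replicates was 30.9% with summits within 100 bp, against 32.6% of all candidates. The akt-2 signal was 28.3 to 40.7 in single replicates, on their own scales. Among genes with windows of 10000 bp or longer, 3.62% had an optimal peak and 75.1% a pooled candidate; on X, an alternative added after seeing the data, 68.8% had a pooled candidate. Within 100 bp of summits the EOR-1 words, GAGAG and CTTATCA were at 1, 11 and 4 of the 55 candidates (1.82, 20.0 and 7.27%), against 14.8, 43.75 and 1.95% of optimal peaks and 0.687, 13.9 and 3.27% of pooled candidates. The highest pooled signal was 17.2 in the akt-2 gene body, and with 10000 bp upstream 40.1 at daf-2 and 27.3 at daf-18; akt-1 had none with 2000 bp or less. Read depth is unknown, which limits every statement about absent or weak regions. No paired analysis was possible because there is 1 group.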
